A study of Mus musculus with 7 samples.

Results

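Foxl2-positive pregranulosa cells were taken from the E12.5 library of fetal mouse ovary, where 447 of 4744 called cells met the criteria, out of 52542 cells in the whole series. The cells were chosen on measured values. Each had at least 1000 detected genes, at least 1 unique molecular identifier (UMI, the count of a captured RNA molecule) of Foxl2, at least 2 UMIs of Wnt6 and Kitl together, no UMI of Amh or Pax8, and at most 1 UMI of the germ cell genes Dazl, Ddx4 and Pou5f1 together. They were set beside the 993 cells of the same library that passed all other gates and had no Foxl2 UMI. The 8 genes of the gates describe how the cells were selected and were left out of every count of genes. Because the split was made on Foxl2 in these same cells, all differences between the groups below are descriptions.

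The series holds 7 libraries, 1 per age between E11.5 and P5, from gonads of untreated wild-type mice of the C57BL/6J strain, dissociated with trypsin and captured by 10x Genomics v2 chemistry. The gonads were labelled as ovaries from E12.5 onwards, and the study sequenced several gonads or ovaries, which the files do not tell apart. With 1 library per age no difference between cells or ages has a replicate, no test was run, and all intervals are 95% exact intervals that cover counting error only. Age and library cannot be told apart.

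Pregranulosa cells are the supporting cells of the fetal ovary, which arise from the same bipotential precursors as the Sertoli cells of the testis, enclose the germ cells and become the granulosa cells of follicles. Foxl2 encodes a forkhead transcription factor that maintains granulosa cell identity, and Wnt4 and Rspo1 signal through beta-catenin in the female gonad. Fst encodes follistatin, a secreted inhibitor of activin, and is a known target of both Foxl2 and Wnt signaling. Supporting cells leave the cell cycle as they differentiate, and the cyclin-dependent kinase inhibitor encoded by Cdkn1b marks cells that have done so.

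Of the 4744 called cells, 4244 had at least 1000 genes, 1815 of these had at least 2 UMIs of Wnt6 and Kitl, 1680 also lacked Amh, 1452 also lacked Pax8 and 1440 had at most 1 germ cell UMI. A Foxl2 UMI was found in 31.0% of the 1440 gated cells (28.7 to 33.5%). The members held 5483982 UMIs in all. They ranged from 1728 to 28280 UMIs per cell with a median of 12210. The Foxl2 = 0 cells ranged from 1917 to 71564 with a median of 12811, so that median depth was close but the deepest cells were not members. The median member had 3557 genes and 4.61% mitochondrial UMIs, against 3522 genes and 3.80% in the Foxl2 = 0 cells. After each cell was thinned to 3000 UMIs, and the 23 gated cells below that depth were left out, a Foxl2 UMI remained in 13.7% (11.9 to 15.6%) of 1417 cells.

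Foxl2 (ENSMUSG00000050397, GRCm38 chromosome 9, 98955288 to 98958543) was sparse in the members, with 1 to 9 UMIs per cell and a median of 2. A single Foxl2 UMI was the basis of 205 of the 447 cells (45.9%), 118 had 2 UMIs, 47 had 3 and 77 had 4 to 9. Cells of other types were used to gauge the background of Foxl2 UMIs, whose source was not tested. In the same library a Foxl2 UMI was found in 5 of 322 germ cells gated on at least 4 germ UMIs (1.55%, 0.506 to 3.59%), which had a median of 23624 UMIs, and in 5 of 692 cells gated on at least 2 UMIs each of Nr2f2 and Col1a1, called mesenchymal-gated (0.723%, 0.235 to 1.68%), with a median of 10060. Both gates also asked for at most 1 UMI of Wnt6 and Kitl. It was found in 4 of 180 cells in which haemoglobin made up most of the UMIs (2.22%, 0.609 to 5.59%), with a median of 17690, and in 2 of 40 cells with at least 3 endothelial UMIs (5%, 0.611 to 16.9%), with a median of 20499. The haemoglobin and endothelial gates set no limit on Wnt6 and Kitl, so members could pass them. At least 1 member passed the haemoglobin gate, with 19638 haemoglobin UMIs where no member held over 28280 UMIs. The shares in these cells are therefore not a background separate from the members. After thinning, 0 of 313 germ cells had a Foxl2 UMI, which allows a share of up to 0.958%, and 0 of 683 mesenchymal-gated cells, which allows up to 0.439%, against 13.7% of the gated cells.

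**Figure D1:**
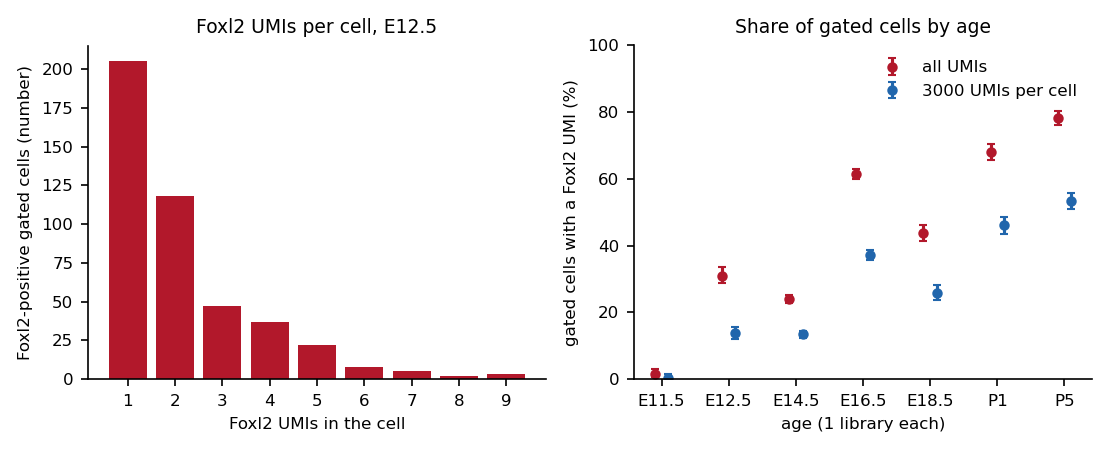
Left, number of Foxl2-positive gated cells at E12.5 (y axis) by the Foxl2 UMIs they held (x axis). Right, percent of gated cells with a Foxl2 UMI (y axis) in the 1 library of each age (x axis), with all UMIs and after thinning to 3000 UMIs per cell, with 95% exact binomial intervals. Most members held 1 or 2 Foxl2 UMIs, and the E12.5 share of 31.0% stood between 1.52% at E11.5 and 78.3% at P5.

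Fst differed on either side of the Wnt6 and Kitl gate. The 9 Foxl2-positive cells with exactly 2 UMIs of these ligand genes had Fst at 885 CPM (the UMIs of a gene relative to all UMIs of the cells), whereas the 8 cells with 1 UMI had 104 CPM and the 11 cells with none had 15.7 CPM. The 205 members with 1 Foxl2 UMI had Fst at 1148 CPM, against 335 CPM in the cells with none. A further 59 Foxl2-positive cells were kept out by Pax8, with Fst at 851 CPM, and 17 by Amh, with Fst at 687 CPM. Only 6 members had fewer than 1500 genes.

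The library did not match its label in every cell. A UMI of a Y-linked gene (Ddx3y, Eif2s3y, Kdm5d or Uty) was found in 334 of the 4744 called cells of the E12.5 ovary library (7.04%), against 2342 cells (28.2%) in the E11.5 library, which is labelled as gonad, and 1 cell in the E14.5 library. An Amh UMI was found in 182 cells at E12.5. Among the 447 members, 5 had a Y-linked UMI (1.12%) against 46 of the Foxl2 = 0 cells (4.63%), and Xist, which is transcribed from the inactive X chromosome, was found in 98.4% of members and 94.3% of Foxl2 = 0 cells. The 127 Amh-positive cells that passed the other gates had a Y-linked UMI in 72.4% of cells, and levels of 333 CPM for Sox9, 199 CPM for Dhh and 725 CPM for Ptgds. The members had 35.9 CPM for Sox9, 0.547 CPM for Dhh and 12.8 CPM for Ptgds. Without the cells with a Y-linked UMI, 442 members remained, 31.8% of gated cells.

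Some barcodes occurred in more than 1 library. Of the 447 member barcodes, 12 were also found at E11.5, 9 at E14.5, 3 at P1 and 4 at P5, with none at E16.5 or E18.5. Leaving out every cell with such a barcode left 420 members, 30.7% of the gated cells.

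The markers Fst and Irx3 were both found in most members. Fst (ENSMUSG00000021765, chromosome 13, 114452290 to 114458951) ranged from 0 to 96 UMIs in the 447 members with a median of 14, and was found in 94.2% of them. In the Foxl2 = 0 cells it ranged from 0 to 56 with a median of 0 and was found in 49.6%. The ranges overlapped, but most members stood well above the median Foxl2 = 0 cell. The pooled level of Fst was 1261 CPM (1232 to 1291) in members and 335 CPM (326 to 345) in Foxl2 = 0 cells, a ratio of 3.76 (3.62 to 3.91).

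Irx3 (ENSMUSG00000031734, chromosome 8, 91798525 to 91802067), which encodes an Iroquois homeobox transcription factor of the pregranulosa cell, had 0 to 29 UMIs per member with a median of 2, against 0 to 31 with a median of 0. The pooled levels were 297 CPM (283 to 312) and 130 CPM (125 to 137), a ratio of 2.28 (2.13 to 2.44). Both genes were found in 311 of the 447 members (69.6%), and 13 members had neither. Of the ligand genes of the gate, Wnt6 was at 563 CPM in the members and 301 CPM in the Foxl2 = 0 cells.

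Over the whole transcriptome, 9955 genes had at least 100 UMIs over the groups. Of these 1036 (10.4%) were at least 1.5-fold higher in Foxl2-positive cells and 986 (9.90%) at least 1.5-fold lower, with a median ratio of 1.01. Without cells with a Y-linked UMI the counts were 1013 and 893, and without barcodes of other libraries 1004 and 999. Among the genes with the largest ratios were metabolic and steroid enzymes. Among the smallest were endothelial genes, which lay in few cells.

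**Figure D2:**
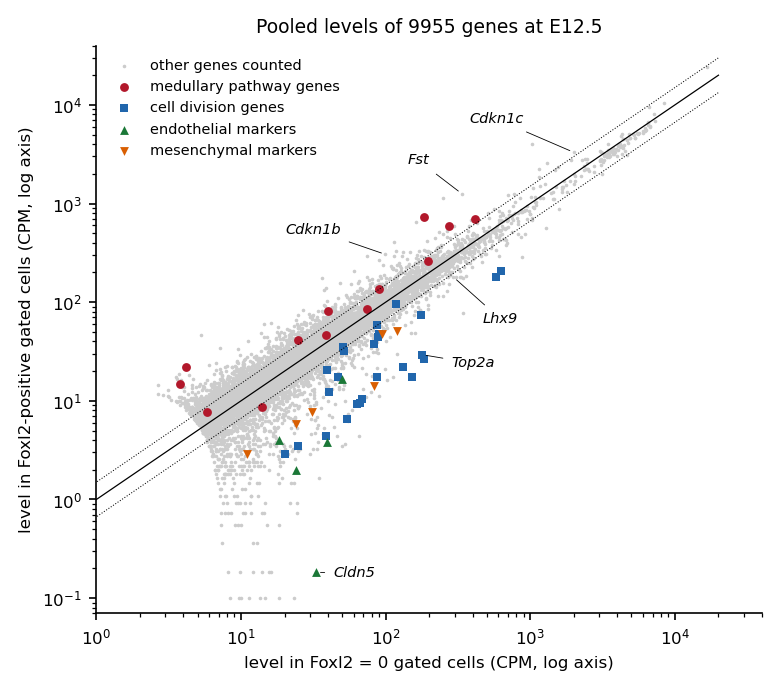
Pooled level of each of 9955 genes in the 993 Foxl2 = 0 cells (x axis, CPM, log axis) and in the 447 Foxl2-positive cells (y axis, CPM, log axis) of the E12.5 library, with 4 gene lists marked. The solid line marks equal levels, the dotted lines 1.5-fold, and genes with 0 UMIs in the Foxl2-positive cells are drawn at the bottom. Fst and Cdkn1b lie above the dotted lines, and cell division, endothelial and mesenchymal genes mostly below.

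Ccdc182, which encodes a coiled-coil protein, was at 175 CPM against 36.1 CPM, with a UMI in 48.1% of members and a ratio of 4.84 (4.33 to 5.40).

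The steroid genes among the 16 genes with the largest ratios were low in level at E12.5. Akr1c14 (ENSMUSG00000033715, chromosome 13, 4049011 to 4090688), a 3-alpha-hydroxysteroid dehydrogenase gene, was at 22.1 CPM in members and 4.15 CPM in Foxl2 = 0 cells, a ratio of 5.31 (3.84 to 7.43), and had a UMI in 80 members. Hsd3b1, a 3-beta-hydroxysteroid dehydrogenase gene, was at 14.8 and 3.78 CPM. Among metabolic genes, Pdk4, which encodes a kinase that restrains pyruvate dehydrogenase, was at 17.3 against 3.56 CPM and found in 17.2% of members, and Sqor, a mitochondrial sulfide oxidase gene, was at 11.7 against 2.67 CPM and found in 13.9%.

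The calcium channel gene Cacna1d was at 59.99 CPM in members and 14.3 CPM in Foxl2 = 0 cells and was found in 45.9% and 13.8% of cells. Tmem178, a membrane protein gene, was at 34.3 and 7.20 CPM. The other genes named among the 16 largest ratios lay below 20 CPM in members with a ratio between 3.97 and 5.46, except Sprr2d. They were Rgn, Pla2r1, Thbs2, Shtn1, Lgals9, Oasl2 and the noncoding gene Irx3os beside Irx3. Sprr2d, a gene of the small proline-rich protein family, had the largest ratio, 8.76 (6.71 to 11.6), but was found in 34 members, of which 11 held at least 10 UMIs, with a highest value of 34, so its level was set by few cells. Reads shared with other genes of its family were not examined.

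The 12 genes with the smallest ratios were Cd34, Flt1, Icam2, Eng, Aplnr, Sox17, Myct1, 8430408G22Rik, Cldn5, Plvap, Gimap6 and Lmo2, most of them known from endothelium. The members held 0 UMIs of 8 of these genes and 1 UMI of each of the other 4. Flt1, a receptor for vascular endothelial growth factor, was at least 33.2-fold lower in members, and Cd34, a surface antigen of endothelial and blood progenitor cells, at least 42.7-fold, taking 3 UMIs over the members as the floor. The exact counting interval of the ratio reached up to 0.0373 for Flt1 and 0.0290 for Cd34. In the Foxl2 = 0 cells Flt1 came from 2.42% of cells and Cd34 from 2.62%.

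Markers of other cells moved with the contrast. All 5 endothelial markers, all 6 mesenchymal markers and the 1 mesonephric tubule marker counted were at least 1.5-fold lower in members, against 9.90% of all genes. The endothelial markers summed to 26.8 CPM in members and 164 CPM in Foxl2 = 0 cells, with Egfl7 as the member with most UMIs, and the mesenchymal markers to 129 and 363 CPM, with Nr2f2 leading. The mesonephric markers summed to 18.2 and 49.3 CPM, led by Epcam, with Pax8 at 0 by the gate. Upk3b, a surface epithelial gene, was at 4.38 CPM in members and 65.8 CPM in Foxl2 = 0 cells. A UMI of Upk3b or Krt19 was found in 7.83% of members and 25.2% of Foxl2 = 0 cells, and at least 2 Nr2f2 UMIs in 14.54% and 33.4%. The part of these other cells in the contrast was not tested, beyond the narrower comparison given next.

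Germ markers summed to 10.4 and 8.16 CPM, led by Dppa3, and no germ gene outside the gate had enough UMIs to be counted. Of the 6 germ markers 3 were genes of the gate, so low sums in both groups were set by the choice of cells. Immune markers summed to 23.3 and 24.3 CPM, led by C1qb, with 3 genes counted and none past 1.5-fold. All 6 erythroid markers counted were higher, against 10.4% of all genes, with summed levels of 6819 and 1738 CPM, led by Hbb-y. That difference rested on 2 members with over 1000 haemoglobin UMIs, which held 85.7% of the members' haemoglobin. Without those 2 members and 1 such Foxl2 = 0 cell, summed haemoglobin was at 990.4 and 945.8 CPM, a ratio of 1.05.

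The comparison was therefore repeated with Foxl2 = 0 cells that carried no Upk3b or Krt19 UMI and at most 1 UMI each of Cldn5, Pecam1 and Cdh5 together, of Nr2f2 and of Col1a1, a choice made after the data were seen. This left 523 of the 993 cells. Of 8450 genes counted, 365 (4.32%) were at least 1.5-fold higher in members and 160 (1.89%) at least 1.5-fold lower, with a median ratio of 1.04. Of the 1036 genes that were higher against all Foxl2 = 0 cells, 904 could be counted, 897 remained above 1 and 304 remained past 1.5-fold. Of the 986 lower genes 503 could be counted, 467 remained below 1 and 135 remained past 1.5-fold. Fst had a ratio of 2.12 (2.03 to 2.21) in the narrower comparison and Irx3 of 1.33 (1.24 to 1.43).

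The members were left unfiltered in the narrower comparison. At least 2 Nr2f2 UMIs were held by 14.54% of them and a Upk3b or Krt19 UMI by 7.83%, against 0% of the 523 cells, so the ratio of Nr2f2, 1.74, was set by that choice. With the same filter on both groups, also chosen after the data were seen, 350 members were set beside the 523 cells. Of 8054 genes counted, 383 (4.76%) were higher and 209 (2.59%) lower, with a median ratio of 1.03. Fst was then at 2.17 (2.08 to 2.26), Irx3 at 1.46 (1.35 to 1.58), Cdkn1b at 1.96 (1.80 to 2.13) and Nr2f2 at 0.863 (0.671 to 1.11). The filter did not lower the mesonephric tubule markers. They summed to 73.3 CPM in the 523 cells, against 49.3 CPM in all Foxl2 = 0 cells and 18.2 CPM in the unfiltered members. Epcam had a ratio of 0.239 against the narrower cells and of 0.203 with both groups filtered.

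The largest ratios were smaller in these comparisons. Ccdc182 was at 2.65 against the narrower cells and 2.80 with both groups filtered, Akr1c14 at 3.16 and 3.02, and Hsd3b1 at 1.93 and 1.90. In the same order Cacna1d was at 2.48 and 2.43, Tmem178 at 3.05 and 3.34, Pla2r1 at 3.25 and 3.22, Shtn1 at 2.54 and 2.73 and Sprr2d at 5.12 and 5.34. After thinning of all cells to 3000 UMIs, Pdk4 was at 2.71 in place of 4.86, Sqor at 2.64 in place of 4.37, Lgals9 at 2.20 in place of 4.21 and Sprr2d at 5.54. Among the listed genes, Wnt4 was at 1.40 against the narrower cells and 1.39 with both groups filtered, Inha at 1.29 and 1.34, and Akr1cl at 1.38 and 1.44, all under 1.5-fold.

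**Figure D3:**
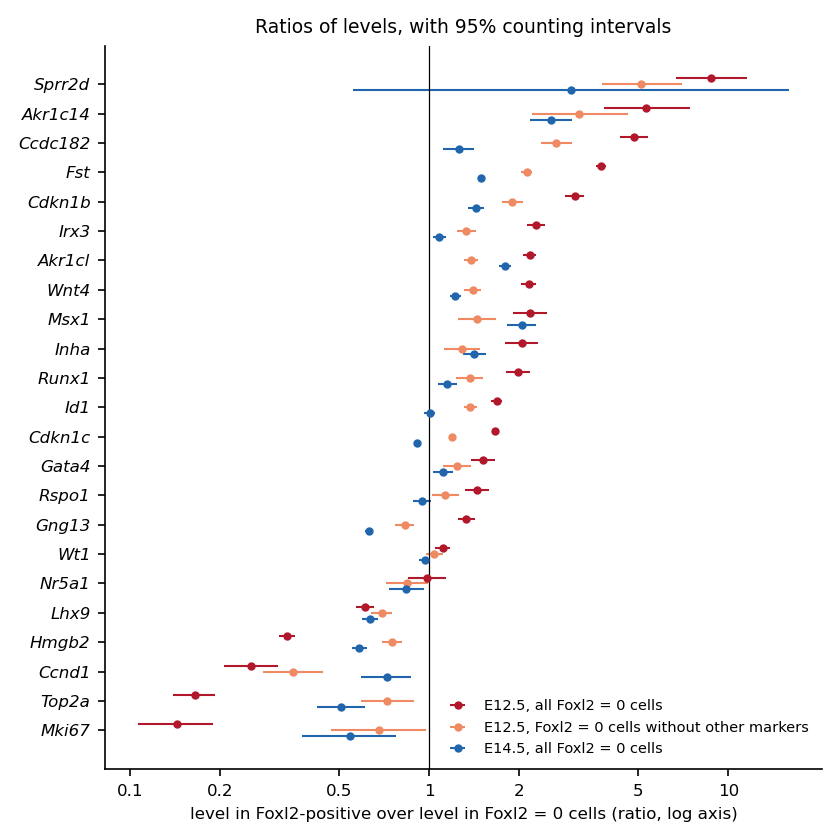
Ratio of the pooled level in Foxl2-positive cells to that in Foxl2 = 0 cells (x axis, log axis) for named genes (y axis), with 95% exact counting intervals, at E12.5 against all Foxl2 = 0 cells, at E12.5 against the 523 Foxl2 = 0 cells without the filtered markers of other cells, and at E14.5. Fst, Cdkn1b and Akr1c14 were above 1 in all 3 comparisons and Lhx9 was below 1 in all 3, whereas Gng13 was above 1 in the first alone.

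Among transcription factors of the gonad and of granulosa cells, 21 of 27 were counted, 7 were higher and 3 were lower, against 10.4% and 9.90% of all genes, with a median ratio of 1.08 against 1.01 for all genes. The 7 higher genes were Irx3, Runx1, Msx1, Gata4, Nr0b1, Esr1 and Msx2. Runx1 (ENSMUSG00000022952, chromosome 16, 92601466 to 92826149), a factor of the female supporting lineage, was at 155 CPM (144 to 165) in members and 78.0 CPM (73.3 to 82.8) in Foxl2 = 0 cells, a ratio of 1.98. Msx1, a homeobox gene, was at 79.9 and 36.6 CPM, and Gata4, a zinc finger factor of the early gonad, at 136 and 89.5 CPM.

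The early gonad factors Wt1 and Nr5a1 lay within 1.5-fold. Wt1, which is needed to form the gonad, was at 330 and 297 CPM, and Nr5a1, which drives steroid genes, at 49.2 and 50 CPM, a ratio of 0.985 (0.852 to 1.14). Lhx9 (ENSMUSG00000019230, chromosome 1, 138825186 to 138848577), a LIM homeobox gene of the gonadal surface and precursors, was the best covered of the lower factors. It was at 180 CPM (169 to 191) in members and 294 CPM (285 to 303) in Foxl2 = 0 cells, a ratio of 0.612 (0.570 to 0.656), and at 0.694 (0.640 to 0.753) in the narrower comparison. In the narrower comparison 17 of these factors were counted, against 4.32% of all genes higher and 1.89% lower. The 1 higher factor was Nr2f1, at a ratio of 2.02 there, 1.88 (1.40 to 2.55) with both groups filtered and 0.972 against all Foxl2 = 0 cells, and 0 were lower. Irx3 (1.33), Runx1 (1.37), Msx1 (1.45), Gata4 (1.24), Nr0b1 (1.09) and Esr1 (1.49) lay under 1.5-fold there, and Msx2 had too few UMIs to be counted. With both groups filtered 3 of 17 were higher (Nr2f1, Msx1 and Esr1) and 0 lower, against 4.76% and 2.59% of all genes.

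Of the Wnt and R-spondin genes outside the gate, 22 of 29 were counted, 4 were higher and 5 were lower, against 10.4% and 9.90% of all genes, with a median ratio of 0.993. The higher genes were the ligand genes Wnt4 and Wnt9a, the receptor gene Fzd1 and Lgr5. Wnt4 (ENSMUSG00000036856, chromosome 4, 137277489 to 137299726) had 0 to 23 UMIs per member with a median of 4, against 0 to 26 with a median of 2. Its pooled levels were 417 CPM (401 to 435) and 194 CPM (187 to 201), a ratio of 2.15 (2.04 to 2.28). Rspo1, which amplifies Wnt signals, was at 135 and 92.9 CPM, a ratio of 1.45 (1.32 to 1.59) that lay under 1.5-fold. The Wnt targets Axin2, at 55.1 and 42.9 CPM, and Sp5, at 46.0 and 47.8 CPM, lay closer to equal. The lower genes included Sfrp1, an inhibitor of Wnt ligands, at 13.1 against 70.3 CPM, and Wnt5a, at 13.7 against 38.9 CPM. In the narrower comparison 0 of 18 genes were higher and 1 was lower (Sfrp1, 0.356), against 4.32% and 1.89% of all genes, and with both groups filtered 1 was higher (Wnt9a) and 1 lower (Sfrp1), against 4.76% and 2.59%.

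Of the activin, follistatin, inhibin and BMP genes, 20 of 27 were counted, 4 were higher and 2 were lower, against 10.4% and 9.90% of all genes, with a median ratio of 1.15. Besides Fst the higher genes were Inha, which encodes the inhibin alpha subunit, at 81.9 against 40.2 CPM, and the BMP target genes Id1, at 701.5 against 417 CPM, and Id3, at 873 against 565 CPM. The activin subunit gene Inhbb was at 46.7 and 38.9 CPM, and Amhr2, the receptor gene for the hormone that Amh encodes, at 262 and 195 CPM, a ratio of 1.35 (1.26 to 1.44). The ratio of Inhbb crossed 1 both against the narrower cells and with both groups filtered. The lower genes were Tgfb2, at 9.48 against 22.6 CPM, and the receptor gene Acvr2b, at 30.8 against 47.2 CPM. In the narrower comparison 2 of 17 genes were higher (Fst, and Acvr2a at 1.54) and 0 were lower, against 4.32% and 1.89% of all genes. After filtering both groups Fst was the 1 higher gene of 16, Acvr2a had too few UMIs to be counted and 0 were lower, against 4.76% and 2.59% of all genes.

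Genes of cell division were mostly lower in the members. All 25 genes on the list were counted, 22 were lower and 0 were higher, with a median ratio of 0.299, against 9.90% of all genes being lower. Top2a (ENSMUSG00000020914, chromosome 11, 98992943 to 99024189), the topoisomerase gene of dividing cells, had a UMI in 62 of 447 members (13.9%) and in 25.8% of Foxl2 = 0 cells. At least 10 Top2a UMIs were held by 4 members and by 109 Foxl2 = 0 cells. The pooled levels were 29.4 CPM (25.0 to 34.3) and 178 CPM (171 to 186), a ratio of 0.165 (0.139 to 0.193). Mki67 was at 9.48 and 66.2 CPM, and the chromatin protein gene Hmgb2 at 209 and 625 CPM.

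The ratios on this list ranged from 0.113 for Ube2c to 0.814 for Mcm6. Ube2c, which marks mitotic proteins for destruction, had a ratio of 0.113, and Cenpf, a kinetochore gene, of 0.143. The replication helicase gene Mcm6 was at 95.9 and 118 CPM, a ratio of 0.814, and Mcm4 at 0.688. The contrast was smaller against the narrower Foxl2 = 0 cells, where 7 of 22 genes were lower, against 1.89% of all genes, with a median ratio of 0.718 and Top2a was at 0.725 (0.590 to 0.890). With both groups filtered 14 of 21 were lower, against 2.59% of all genes, with a median ratio of 0.643 and Top2a at 0.371 (0.276 to 0.492). At least 2 UMIs of Top2a and Mki67 were found in 4.03% of members, 20.6% of all Foxl2 = 0 cells and 6.50% of the narrower ones. When cells with at least 2 such UMIs were left out of both groups, 429 members remained, with 669 genes higher and 444 lower.

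Of the cell cycle inhibitor and cyclin D genes 6 of 9 were counted, with Cdkn1b and Cdkn1c higher, Ccnd1 lower and a median ratio of 0.851, against 10.4% and 9.90% of all genes. Against the narrower cells Cdkn1b was higher and Ccnd1 and Cdkn1a (0.566) were lower, against 4.32% and 1.89% of all genes. Cdkn1b (ENSMUSG00000003031, chromosome 6, 134920401 to 134925513), which encodes p27, had 0 to 16 UMIs per member with a median of 3, against 0 to 14 with a median of 1, and was found in 89.0% of members and 52.8% of Foxl2 = 0 cells. Its pooled levels were 305 CPM (291 to 320) and 99.6 CPM (94.3 to 105), a ratio of 3.06 (2.85 to 3.30), and of 1.89 (1.75 to 2.05) in the narrower comparison. Cdkn1c, which encodes p57, was found in all members, with 1 to 252 UMIs and a median of 32, against a median of 19, and had a ratio of 1.66 (1.63 to 1.69). Its ratio was under 1.5-fold against the narrower cells (1.19) and with both groups filtered (1.2). The cyclin gene Ccnd1 was at 18.6 and 73.1 CPM, a ratio of 0.255 (0.206 to 0.312), and of 0.352 in the narrower comparison. Ccnd2, at 270.4 and 315 CPM, and Ccnd3, at 76.2 and 97.0 CPM, lay within 1.5-fold.

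Pathway genes of pregranulosa cells were counted from lists that the study in part chose on these same cells, so that their counts are not independent evidence. Of the medullary pathway genes, 13 of 18 were counted, 8 were higher and 1 was lower, against 10.4% and 9.90% of all genes, with a median ratio of 1.65. The higher genes included Akr1c14, Hsd3b1, Akr1cl, Inha, Id1, Nr0b1 and Gata4. Akr1cl, an aldo-keto reductase gene, had a median of 5 UMIs per member against 1, and was at 597 and 276 CPM. The lower gene was the cholesterol transporter gene Star, at 8.75 and 14.02 CPM. Fshr had no UMI in either group and Cyp19a1, the aromatase gene, had 1 UMI in the members. In the narrower comparison 3 of 12 genes were higher and 0 were lower, against 4.32% and 1.89% of all genes, and with both groups filtered 3 of 11 were higher and 0 lower, against 4.76% and 2.59%.

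Of the epithelial pathway genes, 10 of 14 were counted, 1 was higher and 5 were lower, against 10.4% and 9.90% of all genes, with a median ratio of 0.937. The lower genes were Lhx9 and the surface genes Upk3b, Krt19, Krt7 and Lrrn4. Lgr5, an R-spondin receptor gene, was at 32.6 and 20.7 CPM, a ratio of 1.58 (1.30 to 1.91), and was found in 26.4% of members. Against the narrower cells 7 genes were counted and 0 were higher or lower, against 4.32% and 1.89% of all genes, with a median ratio of 0.987. Upk3b and Krt19 defined those cells and Lrrn4 had too few UMIs, while Lhx9 (0.694), Krt7 (0.962) and Lgr5 (1.13) were counted and lay within 1.5-fold. The filter on both groups also left 0 of 7 called, where 4.76% of all genes were higher and 2.59% lower. Gng13 (ENSMUSG00000025739, chromosome 17, 25717171 to 25719406), a G protein subunit gene, had 0 to 44 UMIs per member with a median of 1 and was at 252 and 189 CPM, a ratio of 1.33 (1.24 to 1.42) that turned to 0.828 (0.771 to 0.889) in the narrower comparison to 0.883 (0.819 to 0.953) with both groups filtered and to 0.943 when members needed at least 2 Foxl2 UMIs. A Gng13 UMI was found in 59.7% of members and an Fst UMI in 94.2%. Both were found together in 253 members (56.6%), a share near that of Gng13 alone.

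Genes of the Sertoli cell pathway were present at low levels. Of 17 genes outside the gate 11 were counted, 4 were higher (Ptgds, Aard, Cldn11 and Nr0b1) and 1 was lower (Fgf9), against 10.4% and 9.90% of all genes, with a median ratio of 1.47. They summed to 219 CPM in members and 142 CPM in Foxl2 = 0 cells, with Aard leading, and Sry and Sox10 were at 0 in members. Sox9 (0 to 10 UMIs per member, median 0) was found in 125 members (28.0%) and 20.9% of Foxl2 = 0 cells, and was at 35.9 and 24.0 CPM, a ratio of 1.499 (1.25 to 1.80). That ratio depended on the setting. It was 1.04 after thinning to 3000 UMIs, 1.25 with equal weight per cell and 1.80 when members needed at least 2 Foxl2 UMIs. Of the 125 Sox9-positive members 3 had a Y-linked UMI and 97.6% an Xist UMI. Fst was at 1293 CPM in Sox9-positive members and 1249 CPM in the others. In the Amh-positive gated cells Aard was at 1191 CPM and Cst9 at 907 CPM, against 59.99 and 11.7 CPM in members. In the narrower comparison 0 of 7 Sertoli pathway genes were higher and 1 was lower (Cst9, at 0.613), against 4.32% and 1.89% of all genes.

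Within the members, Fst and Cdkn1b were higher in each bin of more Foxl2 UMIs, while UMIs per cell were close (medians from 12097 to 12460). Fst was at 1148 CPM (1106 to 1191) in the 205 cells with 1 Foxl2 UMI, 1275 (1218 to 1334) in those with 2, 1356 (1262 to 1454) in those with 3 and 1477 (1401 to 1556) in the 77 cells with 4 to 9. Neighbouring bins of Fst overlapped for 2 against 3 and for 3 against 4 to 9. Cdkn1b was at 265, 295, 356 and 394 CPM in the same order. Top2a was at 46.55, 21.3, 10.4 and 8.34 CPM, and Lhx9 at 202, 188, 124.5 and 143 CPM. Wnt4 was at 400.5, 426, 462 and 421 CPM, with overlapping intervals, and Irx3 at 284, 305, 368 and 274 CPM. For Fst, Cdkn1b and Wnt4 the step from 0 to 1 Foxl2 UMI was larger than any step among the members.

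**Figure D4:**
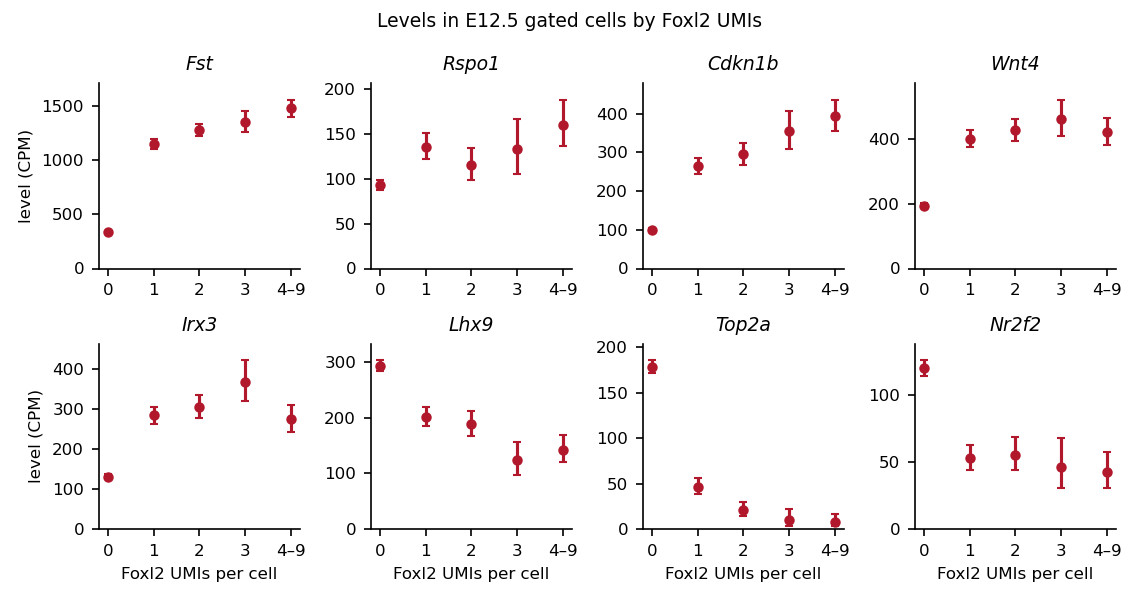
Pooled levels (y axes, CPM) of 8 genes in E12.5 gated cells grouped by their Foxl2 UMIs (x axes, 0, 1, 2, 3 and 4 to 9), with 95% exact Poisson intervals. Fst was at 335 CPM with no Foxl2 UMI and 1148 to 1477 CPM with 1 or more, and Top2a was at 178 CPM with none and 46.55 to 8.34 CPM with 1 or more.

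The 1440 gated cells were also clustered on 2022 variable genes without the genes of the gates, which gave 6 clusters, here given by number. Members were unevenly spread. In cluster 1, with Fst and Gstm6 among its leading genes, 253 of 379 cells were Foxl2-positive (66.8%, 61.8 to 71.5%), in cluster 3, led by Akr1cl, Bst2 and Asns, 118 of 250 (47.2%, 40.9 to 53.6%), and in cluster 2, led by Gng13, Cst8 and Apoc1, 61 of 365 (16.7%, 13.0 to 20.9%). These 3 clusters held 56.6, 26.4 and 13.6% of the members. Clusters 4 to 6, led by Upk3b, by Cenpf and by Ptn and Epcam, held 446 cells, of which 15 were members (3.36%).

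Members differed among the clusters. Gng13 was at 580.1 CPM (530 to 634) in the 61 members of cluster 2 and at 180.3 CPM (165 to 197) in the 253 members of cluster 1, whereas Fst was at 507 CPM (460 to 557) and 1499 CPM (1454 to 1545). Akr1c14 was at 1.18 CPM in members of cluster 2 and 34.7 CPM in those of cluster 1. Members of cluster 3 had Akr1cl at 1004 CPM, Bst2, an interferon-induced membrane protein gene, at 855 CPM and Asns, the asparagine synthetase gene, at 345 CPM, against 494, 343 and 146 CPM in members of cluster 1. Rspo1 was at 217 CPM in members of cluster 3 and 96.4 CPM in those of cluster 1. These genes helped to form the clusters, so the values describe them. Sox9 was at 48.9 CPM in members of cluster 1, 18.9 in cluster 2 and 22.0 in cluster 3. The Foxl2 = 0 cells of these clusters had Sox9 at 51.65, 17.35 and 39.2 CPM in the same order. In clusters 4 to 6 Sox9 was at 33.2 CPM in members and 19.3 CPM in Foxl2 = 0 cells.

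Fst and the other genes compared within clusters here were not kept out of the clustering. Closeness of their levels within a cluster was therefore in part set by the grouping, and the values are descriptions. Foxl2-positive and Foxl2 = 0 cells of the same cluster lay closer together for Fst than in the library as a whole in clusters 1 to 3. In clusters 4 to 6 they did not, with Fst at 332 CPM in the 15 members and 27.4 CPM in the 431 Foxl2 = 0 cells. In cluster 1 Fst was at 1499 CPM (1454 to 1545) in members and 1265 CPM (1204 to 1330) in the 126 Foxl2 = 0 cells, and Irx3 at 352.5 CPM (331 to 375) and 344 CPM (312 to 378), which overlapped. Cdkn1c was at 3196 and 3177 CPM, also overlapping, and Cdkn1b at 367 (345 to 390) and 299 CPM (270 to 332). Top2a was at 12.4 and 6.46 CPM with overlapping intervals, where the library as a whole had 29.4 and 178 CPM. In cluster 3 it was at 8.41 CPM (4.48 to 14.38) in members and 21.3 CPM (14.54 to 30.0) in the Foxl2 = 0 cells, without overlap. Ccdc182 was at 193 CPM (177 to 210) in members and 96.85 CPM (80.3 to 116) in the Foxl2 = 0 cells of cluster 1. Its UMIs were uneven over all 447 members, with a median of 0 and a highest value of 32. Overlap of intervals here concerns counting error only, and the spread between cells was not covered. In cluster 3 Fst was at 1401 and 1012 CPM and in cluster 2 at 507 and 326 CPM. In cluster 3 the intervals did not overlap for Irx3 either, at 244 CPM (220 to 270) in members and 179 CPM (159 to 202), or for Cdkn1c, at 3753 and 3169 CPM. In cluster 2 Cdkn1c was at 3284 CPM (3163 to 3409) and 2951 CPM (2896 to 3006), which did not overlap, and Irx3 at 273.5 CPM (239 to 311) and 226.5 CPM (212 to 242), which did.

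**Figure D5:**
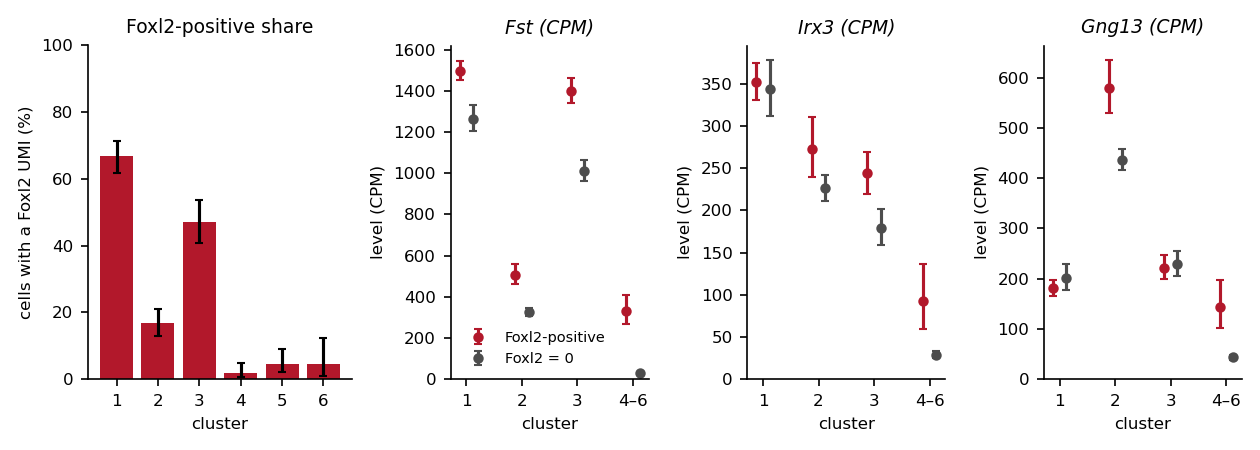
Left, percent of cells with a Foxl2 UMI (y axis) in each of 6 clusters of the E12.5 gated cells (x axis), with 95% exact binomial intervals. Right, pooled levels (y axes, CPM) of Fst, Irx3 and Gng13 in Foxl2-positive and Foxl2 = 0 cells of clusters 1, 2, 3 and 4 to 6 (x axes), with 95% exact Poisson intervals. Cluster 1 had the largest Foxl2-positive share, 66.8%, and in it Fst was at 1499 and 1265 CPM. The 3 genes shown were not kept out of the clustering.

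By the same gates, Foxl2-positive cells were 8 of 527 gated cells at E11.5 (1.52%, 0.658 to 2.97%) and 1080 of 4491 at E14.5 (24.0%, 22.8 to 25.3%). At E11.5, 2 of the 8 Foxl2-positive cells and 35.1% of the Foxl2 = 0 gated cells had a Y-linked UMI, whose part in that share was not tested. In the 4 older libraries the share lay between 43.7% (E18.5) and 78.3% (P5). After thinning to 3000 UMIs the E12.5 share of 13.7% overlapped the E14.5 share of 13.4% (12.4 to 14.47%), and both lay below the older libraries, which ran from 25.9% (E18.5) to 53.3% (P5). The E14.5 cells were shallower, with a median of 6288.5 UMIs in the Foxl2-positive cells, and older gonads were dissociated for longer, whose part in these shares was not tested.

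The same contrast within the E14.5 library gave fewer genes past 1.5-fold than that against all Foxl2 = 0 cells at E12.5. At E14.5, 276 (2.55%) were higher and 323 (2.98%) lower of 10840 genes counted. For lower genes this order depended on the cells compared. At E12.5, 1.89% were lower against the narrower cells and 2.59% with both groups filtered, while 4.32% and 4.76% were higher. The E14.5 cells were not filtered in this way. Of the genes that were higher at E12.5 and counted at E14.5, 842 of 1009 (83.5%) were above 1 at E14.5 with a median ratio of 1.18, against 62.6% of all genes and a median of 1.05. Of the lower genes 682 of 888 (76.8%) were below 1 at E14.5 with a median ratio of 0.856, against 37.4% of all genes. Fst was at 1120.5 CPM in Foxl2-positive and 752 CPM in Foxl2 = 0 cells at E14.5, a ratio of 1.49 (1.45 to 1.53). Msx1 had nearly the same ratio at the ages against all Foxl2 = 0 cells, 2.18 (1.91 to 2.48) and 2.04 (1.82 to 2.28). Its E12.5 ratio was 1.45 against the narrower cells and 1.51 with both groups filtered.

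The level of each gene in Foxl2-positive cells differed between the libraries of later ages. Fst was at 1261 CPM in the E12.5 cells and 336 CPM in the P5 cells, with 1120.5, 763, 897 and 633 CPM in the libraries between, in order of age. Foxl2 itself, in cells chosen for it, was at 176 CPM at E12.5 and 388 CPM at P5. Akr1c14 was at 22.1 CPM at E12.5 and 174 CPM at E18.5, and Inha at 81.9 CPM at E12.5 and 326 CPM at P5, whereas Cdkn1c was at 3307 CPM at E12.5 and 83.5 CPM at P5. Wnt4 was at 417 CPM at E12.5, 453 at E16.5 and 61.3 at P5. Sprr2d and Ccdc182, among the largest ratios at E12.5, were at 46.1 and 175 CPM there and at 0 and 0.171 CPM at P5.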

How the data were processed

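The authors deposited UMI counts per gene and cell for each of 7 libraries, made with Cell Ranger 3.1.0 on mm10 and not normalized or filtered further, over 31053 genes. Cells were not replicates, so UMIs were summed over the cells of a group and divided by all their UMIs (CPM). Ratios have exact conditional intervals, levels exact Poisson and shares Clopper-Pearson intervals at 95%. Genes were counted with at least 100 UMIs over the groups and called past 1.5-fold. Named genes were the 16 largest and 12 smallest ratios, without gate, mitochondrial, Y-linked and haemoglobin genes, and genes of 18 lists; some are not reported here. The members, lists and rules were chosen with earlier results of these data known. Thinning drew 3000 UMIs per cell. Clusters came from 10 principal components, 30 neighbours and Leiden resolution 0.6. Positions are from GENCODE vM21 on GRCm38. Doublets were kept, and Scrublet in scanpy 1.11.5 was tried as an alternative. Its automatic threshold marked 0.510% of E12.5 cells, so the highest 5% were taken there. The ratio and its interval were tested on simulated pooled Poisson counts. These held no spread between cells, so the test does not bear on such spread in the data. Python 3.11.15 ran scipy 1.17.1 for intervals and igraph 0.11.9 for clusters, with pandas 2.3.3, matplotlib 3.10.9 and numpy 2.4.6.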

Additional observations from a re-analysis of the deposited data

Results flagged for a closer look

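A Y-linked UMI was found in 7.04% of the called cells of the E12.5 library, which is labelled as ovary, and lies outside the measurements that define the Foxl2-positive cells.

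For 20 of the listed genes with enough UMIs, the counting interval of the ratio of Foxl2-positive to Foxl2 = 0 cells lay on one side of 1 at E12.5 and on the other at E14.5. The difference between the ages was not tested, since each age has 1 library. The pathway gene Gng13 had a ratio of 1.33 at E12.5 and 0.629 at E14.5, and Lgr5 of 1.58 and 0.793. The keratin genes Krt8 and Krt18 had ratios of 1.26 and 1.31 at E12.5 and of 0.769 and 0.895 at E14.5. Bmp2 had ratios of 1.14 and 0.725, Msx2 of 1.67 and 0.732, and the cell cycle inhibitor gene Cdkn1c of 1.66 and 0.909. In the other direction, the collagen genes Col3a1 and Col4a2 had ratios of 0.497 and 0.585 at E12.5 and of 1.36 and 1.23 at E14.5, Tgfb2 of 0.419 and 1.48, and Ccnd2 of 0.858 and 1.12. The immediate early genes Jun, Junb and Egr1 had ratios of 0.819, 0.757 and 0.538 at E12.5 and of 1.09, 1.04 and 1.14 at E14.5. The haemoglobin genes Hba-a1, Hba-a2, Hba-x, Hbb-bs, Hbb-bt and Hbb-y had ratios from 2.58 to 4.53 at E12.5, set by 2 cells, and of 0.714, 0.721, 0.594, 0.827, 0.855 and 0.519 at E14.5. Several of the E12.5 ratios depended on the cells compared. Against the narrower Foxl2 = 0 cells Col3a1 was at 1.28, Tgfb2 at 1.21, Col4a2 at 0.841, Junb at 1.21, Jun at 1.03, Egr1 at 0.775, Lgr5 at 1.13, Krt8 at 0.987, Krt18 at 1.11, Bmp2 at 0.933, Gng13 at 0.828 and Cdkn1c at 1.19. With both groups filtered Col3a1 was at 1.17, Tgfb2 at 1.14, Junb at 1.02, Jun at 0.975, Lgr5 at 1.20, Krt8 at 1.01, Bmp2 at 0.944 and Gng13 at 0.883. For Col3a1, Tgfb2, Junb, Bmp2 and Gng13 the E12.5 ratio then lay on the same side of 1 as the unfiltered ratio at E14.5, although the intervals reached across 1 for these genes other than Gng13, and Tgfb2 had too few UMIs to be counted.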

How the results depend on the processing

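No paired analysis was possible because each age has 1 library. Without a minimum of UMIs per gene, 2992 genes were higher and 2516 lower, with at least 300 UMIs 555 and 472, past 2-fold 289 and 513, after thinning to 3000 UMIs 498 and 390, and, chosen after seeing the data, against Foxl2 = 0 cells without the filtered markers of other cells 365 and 160, with that filter on both groups 383 and 209, and without cells with at least 2 UMIs of Top2a and Mki67 669 and 444. The share of called genes on the same side of 1 at E14.5, 80.3% as reported, was 67.9% with no minimum, 77.8% with at least 50 and 83.0% with at least 300 UMIs, 86.2% past 2-fold, 74.2% after thinning, 84.4% with Foxl2 = 0 cells weighted by depth, 77.2% with at least 2 Foxl2 UMIs, 73.4% against the narrower cells and 77.1% with both groups filtered. For these shares every setting other than the 2-fold call was applied at both ages. The 73.4% and 77.1% thus used E14.5 cells filtered in the same way, unlike the E14.5 counts and ratios given elsewhere. The Foxl2-positive share of gated cells was 13.7% after thinning, 16.8% with at least 2 Foxl2 UMIs (242 cells), 35.8% with at least 4 UMIs of Wnt6 and Kitl, 25.1% with at most 5% mitochondrial UMIs (284 cells) 35.25% without cells with at least 2 UMIs of Top2a and Mki67 and 40.1% (350 cells) with both groups filtered. Over the 52 genes rerun under all settings that alter ratios, a ratio crossed 1 in 7 cases: Gng13 was at 0.943 with at least 2 Foxl2 UMIs, 0.828 against the narrower cells and 0.883 with both groups filtered, Bmp2 at 0.933, 0.944 with both groups filtered and 0.998 without cells with at least 2 UMIs of Top2a and Mki67, and Top2a, which defined that choice, at 1.34. Of all named and listed genes, 26 of the 158 counted against the narrower cells crossed 1 (among them Cdh11, Nr2f1, Col3a1, Aldh1a2 and Junb) and 22 of 152 with both groups filtered. The causes were not tested. The other settings (scaling by median ratio, totals without haemoglobin and mitochondrial UMIs, equal weight per cell, other minimums of genes per cell, no germ UMI, and without Y-linked, Sox9 or Dhh, doublet, haemoglobin-rich or shared-barcode cells) left these counts within 1.5 times and these shares within their intervals. Over those 52 genes and 19 settings, 775 ratios stayed within the counting interval of the reported ratio, 201 moved beyond it on the same side of 1, and 5 could not be given because both groups held no UMI (Sox9 without cells with a Sox9 or Dhh UMI, Sox17 and Myct1 in both filtered comparisons). Depth limits the choice of cells, since 205 members rest on 1 Foxl2 UMI.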

Other observations

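Of 15 retinoic acid genes, a signal that acts on germ cells entering meiosis, 11 were counted, 3 were higher in Foxl2-positive cells and 3 lower, against 10.4% and 9.90% of all genes, with a median ratio of 0.939. The higher genes were Dhrs3, a retinaldehyde reductase gene, at 52.0 against 28.8 CPM, the retinol carrier receptor gene Stra6, at 13.5 against 6.97 CPM, and the receptor gene Rara, at 31.0 against 20.0 CPM. The lower genes included the binding protein genes Crabp1, at 2.74 against 13.1 CPM, and Crabp2, at 6.93 against 23.4 CPM. Aldh1a1 was at 77.1 and 51.9 CPM and Aldh1a2 at 51.1 and 72.2 CPM. The ratio of Aldh1a2 crossed 1 both against the narrower cells and with both groups filtered. In the comparison with the narrower Foxl2 = 0 cells 0 of 9 genes were higher and 2 lower (Crabp2 at 0.474 and Aldh1a3 at 0.445), against 4.32% and 1.89% of all genes.

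Of the adhesion, gap junction and basement membrane genes 17 of 21 were counted, 3 were higher and 8 lower, against 10.4% and 9.90% of all genes, with a median ratio of 0.819. The higher genes were Gja1, a connexin gene, at 135 against 68.2 CPM, the laminin receptor gene Itga6, at 295 against 174 CPM, and the tight junction gene Cldn11, at 20.6 against 9.72 CPM. The lower genes included Fn1, the fibronectin gene, at 6.93 against 42.7 CPM, and Col4a1, at 52.5 against 81.5 CPM. In the narrower comparison, which left the members unfiltered, 3 of 15 were higher and 1 lower, against 4.32% and 1.89% of all genes. The higher genes were Gja1 (1.71), Tjp1 (1.68) and Cdh11 (1.53, but 0.507 against all Foxl2 = 0 cells), the lower gene was Fn1 (0.627), and Itga6 (1.24) and Cldn11 (1.46) lay under 1.5-fold. With both groups filtered Gja1 (1.79) and Tjp1 (1.76) were the 2 higher of 14 genes and 0 were lower, against 4.76% and 2.59% of all genes, and Cdh11 was at 1.47 (1.00 to 2.17). Of the Notch genes 9 of 18 were counted, 0 were higher and 3 lower (Notch1, Notch3 and Nrarp), against 10.4% and 9.90% of all genes, with a median ratio of 1.05, and Hes1 was at 774 and 709 CPM. Those 3 genes had too few UMIs to be counted against the narrower cells, where 0 of 5 Notch genes were higher or lower, against 4.32% and 1.89% of all genes, with a median ratio of 1.03. Of the 13 genes that respond to dissociation 0 were higher and 2 lower (Egr1 and Atf3), against 10.4% and 9.90% of all genes, with summed levels of 3563 and 4298 CPM, led by Hsp90aa1. Against the narrower cells 1 of 13 was higher (Ier3, 1.66) and 0 were lower, against 4.32% and 1.89% of all genes, with Egr1 at 0.775 and Atf3 at 0.980, and the summed level of those cells was 3512 CPM. With both groups filtered Ier3 was higher (1.63), Egr1 lower (0.659) and Atf3 at 0.839, against 4.76% of all genes higher and 2.59% lower.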
